A study of Homo sapiens with 5 samples.

Results

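Collagen genes were taken as the protein-coding genes of the deposited expression table whose symbol has the form COL, a type number, A and a chain number. This rule found 44 of 60504 genes in the table, which lists 19797 protein-coding genes. They were sorted by known chain type into 11 fibrillar, 6 basement membrane (type IV) and 27 other collagen genes. The cells were DAOY, an established human medulloblastoma line used as a model of the sonic hedgehog (SHH) subgroup. Both groups were transfected with siRNA at 20 nM for 48 h. The si-NC group (2 libraries) received the non-targeting siRNA AM4611, and the si-circ_63706 group (3 libraries) received siRNA against circ_63706, a circular RNA formed from the PCNT gene. Bulk RNA-seq of total RNA was used to compare gene expression between si-circ_63706 and si-NC. All results come from 1 cell line grown in culture, and the sources used here do not say which of the study's siRNAs each si-circ_63706 library received.

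Collagens are the main structural proteins of the extracellular matrix, and each collagen molecule is a triple helix of 3 chains. Fibrillar collagens (types I, III and V among them) pack into fibrils, type IV forms the network of basement membranes, and type VI forms beaded filaments around cells. Chains of a type are made from separate genes: type I contains chains from COL1A1 and COL1A2, the common form of type IV from COL4A1 and COL4A2, and type VI from COL6A1, COL6A2 and a further gene such as COL6A3. In the brain, collagen is found mostly in basement membranes of vessels and in the meninges, and little is found in normal neural tissue. The chains are hydroxylated and folded in the endoplasmic reticulum, exported, trimmed by proteases and cross-linked outside the cell.

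Values are TPM (transcript abundances scaled to a fixed library total), corrected for transcript length and library total. Genes with a mean of at least 1 TPM over the 5 libraries were tested with limma on log2(TPM + 1), and p-values were adjusted by the Benjamini-Hochberg method over all 12710 genes tested, with 0.05 as the threshold. A fold change on this scale understates the change of genes with low TPM. The table holds no counts, so the read depth behind the values is unknown. The 5 libraries were not alike in composition: protein-coding genes took 29.02% of the TPM in both si-NC libraries and 25.2 to 26.9% in the si-circ_63706 libraries, and 29253 to 29748 genes were above 0 in si-NC against 33905 to 34347 in si-circ_63706. The median log2 fold change of all tested genes was -0.16. Fold changes were therefore also computed after each library was centred on its genes with a mean of at least 10 TPM, which brought this median to -0.02. PCNT itself was at 9.96 and 10.4 TPM in si-NC and at 8.8, 7.99 and 7.54 TPM in si-circ_63706 (adjusted p = 0.019, and 0.25 after centring). This gene-level value does not separate the circular from the linear RNA. The study measured PCNT by qPCR in DAOY and other lines and reported no effect of its siRNAs on it. The labels do not say that replicates were separate cultures, so p-values measure the spread between these libraries, which may be technical. Less RNA per cell and fewer cells of a kind cannot be told apart in bulk samples.

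The labelled cell type was checked against its markers. Of 8 markers of SHH medulloblastoma, 6 had a mean of at least 1 TPM, while ATOH1 was at 0.03 TPM or less and GLI1 at 0.29 to 0.49 TPM in each library. Their summed level was 24.35 to 24.6 TPM in si-NC and 22.0 to 22.6 TPM in si-circ_63706. SFRP1 was at 9.35 and 9.46 TPM in si-NC and 6.81 to 7.26 TPM in si-circ_63706 (adjusted p = 0.0038, and 0.018 after centring). EYA1 was lower without overlap (adjusted p = 0.072), HHIP was higher without overlap (adjusted p = 0.12), and GLI2, PTCH1 and PDLIM3 overlapped between groups. Of 8 neural markers, 3 were at a mean of at least 1 TPM, while GFAP, RBFOX3 and NES were at 0.27 TPM or less. The sums were 26.4 to 27.4 TPM in si-NC and 29.1 to 30.8 TPM in si-circ_63706. MAP2 was at 0.22 and 0.28 TPM in si-NC and 0.50 to 0.82 TPM in si-circ_63706. OLIG2 was at 0.23 and 0.19 against 0.10 to 0.16 TPM. Both MAP2 and OLIG2 were under the minimum and not tested. Most of the neural sum came from TUBB3, at 23.6 and 22.25 TPM in si-NC and 24.6 to 26.6 TPM in si-circ_63706. It missed the threshold as deposited (adjusted p = 0.066) and passed it after centring (adjusted p = 0.0052). SOX2 was lower, at 1.51 and 1.61 against 1.16 to 1.38 TPM (adjusted p = 0.19, and 0.65 after centring), and SYP overlapped between groups. Markers of other collagen-making cells were mixed. Of 7 fibroblast markers, 5 were at a mean of at least 1 TPM, their summed level was 104 to 105 TPM in si-NC and 105 to 118 TPM in si-circ_63706 with overlap, and most of it came from THY1. THY1 was at 63.4 and 65.1 TPM in si-NC and at 69.4 to 77.6 TPM in si-circ_63706. FAP was at 6.97 and 7.01 against 9.19 to 11.1 TPM. Both were without overlap (adjusted p = 0.037 and 0.0065, and 0.0027 for each after centring). In the other direction, PDPN was at 23.9 and 23.7 TPM in si-NC and at 19.1 to 20.9 TPM in si-circ_63706 (adjusted p = 0.019). LUM was at 5.64 and 5.79 against 3.47 to 4.82 TPM (adjusted p = 0.027). The PDPN and LUM calls were lost after centring (adjusted p = 0.23 and 0.086). PDGFRB overlapped between groups at 2.12 to 2.86 TPM, PDGFRA was at 0.62 to 0.8 TPM, and DCN was at 0.41 TPM or less in each library. Their part in the collagen values was not tested. Of 5 endothelial markers, TEK was at 1.5 to 1.76 TPM, and PECAM1, CDH5, KDR and VWF were at 0.23 TPM or less in each library. Of 5 epithelial markers, KRT18 was at 214 to 221 TPM and KRT8 at 73.7 to 78.2 TPM, while EPCAM, CDH1 and KRT19 were at 0.35 TPM or less. Of 5 blood markers, CD68 was at 24.7 to 32.8 TPM, while PTPRC, HBB, CD3E and ITGAM were at 0.11 TPM or less.

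Of the 44 collagen genes, 18 reached the minimum and were tested: 6 fibrillar, 3 basement membrane and 9 other genes. After circ_63706 siRNA, 4 collagen genes rose (COL1A1, COL1A2, COL4A1 and COL4A2) and 4 fell (COL3A1, COL6A3, COL13A1 and COL23A1), and 10 did not pass the test. Each direction thus held 22.2% of the collagen genes tested, where 4.16% of all tested genes rose and 35.4% fell. All 4 that rose encode chains of types I and IV. The median log2 fold change of the 18 was 0.0026, against -0.16 for all tested genes. After centring, 6 collagen genes rose and 1 fell, where 12.3% of all tested genes rose and 15.2% fell, and the collagen median was 0.12. The groups did not overlap in 6 collagen genes with higher TPM in si-circ_63706 and in 7 with lower TPM, and they overlapped in 5. Over all tested genes, 8.93% were higher without overlap and 55.2% lower.

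**Figure D1:**
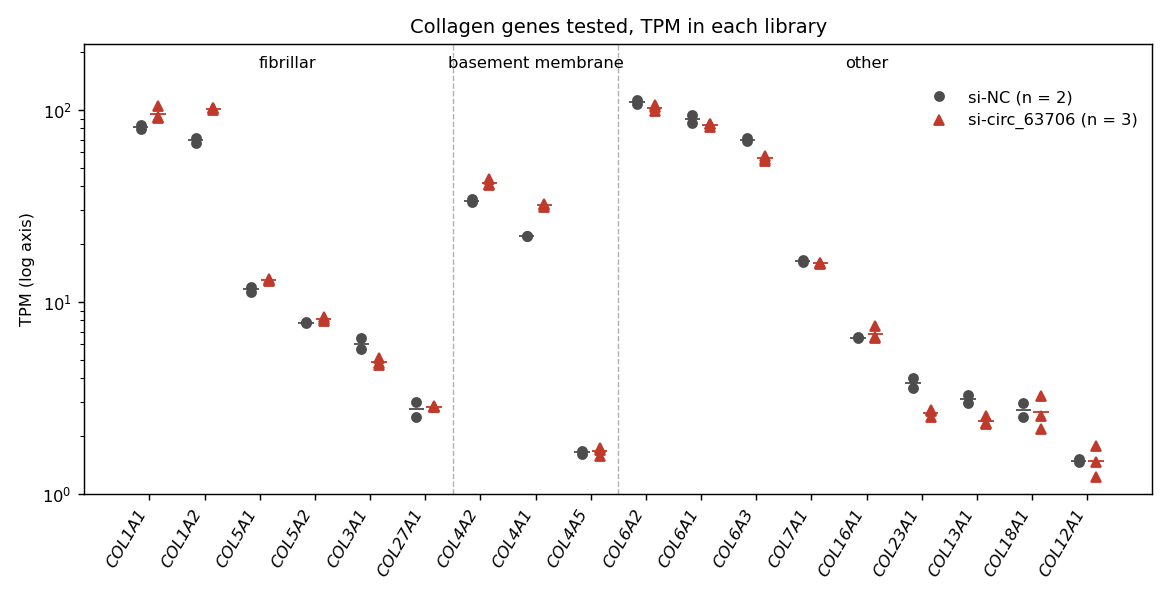
TPM of the 18 tested collagen genes (log axis) in the 2 si-NC libraries (circles) and the 3 si-circ_63706 libraries (triangles), with lines at the group means and dashed lines between classes. COL1A2, COL4A1 and COL4A2 lie higher in all 3 si-circ_63706 libraries, COL6A3 and COL23A1 lie lower, and the groups overlap in COL4A5.

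Type I collagen, the main fibril-forming collagen of skin, bone and tendon, rose in both of its chains. COL1A2 (chr7:94394561-94431232, plus strand, GRCh38) was at 71.7 and 67.1 TPM in si-NC and at 102, 99.6 and 103 TPM in si-circ_63706. All 3 si-circ_63706 libraries were far above both si-NC libraries, and the mean was 146% of that in si-NC (log2 fold change 0.54 ± 0.05 SE, adjusted p = 0.0011). This call held in all 15 alternative fits. COL1A1 (chr17:50183289-50201632, minus strand) was at 83.0 and 79.4 TPM in si-NC and at 104, 91.7 and 91.0 TPM in si-circ_63706. The groups did not overlap, but si-circ_63706 replicate 1 stood above the other two (log2 fold change 0.23 ± 0.07 SE, adjusted p = 0.039). The COL1A1 call was lost without si-NC replicate 1 (adjusted p = 0.11), without si-NC replicate 2 (0.19) and without si-circ_63706 replicate 2 (0.059). It was also lost with no minimum TPM (0.15) and without the mean-variance trend (0.059), so that it held in 10 of 15 alternatives. After centring, the log2 fold change was 0.70 for COL1A2 and 0.39 for COL1A1, and both passed the test.

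Within a library, the ratio of 2 genes does not depend on the library total. COL1A1 TPM was 1.16 and 1.18 times COL1A2 TPM in si-NC, and 1.02, 0.921 and 0.886 times in si-circ_63706. The chain encoded by COL1A1 is used in 2 copies per type I molecule and the chain encoded by COL1A2 in 1. The ratio was thus lower in all 3 si-circ_63706 libraries, and no test was run on the ratios.

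Of the other tested fibrillar genes, none rose and 1 fell. COL5A1 and COL5A2 encode type V chains, which sit inside type I fibrils and limit their width. COL5A1 was at 12.0 and 11.3 TPM in si-NC and at 13.1, 12.85 and 13.1 TPM in si-circ_63706 (log2 fold change 0.15 ± 0.05 SE, adjusted p = 0.056). The groups did not overlap, and the gene missed the threshold as deposited but passed it after centring (0.30, adjusted p = 0.010). COL5A2 was at 7.84 and 7.77 TPM in si-NC and at 7.97, 8.12 and 8.30 TPM in si-circ_63706, a narrow gap without overlap (log2 fold change 0.05 with a 95% interval of -0.07 to 0.17, adjusted p = 0.44, and 0.020 after centring).

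COL3A1, whose type III collagen forms mixed fibrils with type I in elastic tissues, fell. It was at 6.45 and 5.67 TPM in si-NC and at 5.08, 4.79 and 4.68 TPM in si-circ_63706. All 3 si-circ_63706 values were below both si-NC values (log2 fold change -0.27 ± 0.07 SE, adjusted p = 0.026). This call was lost after centring (-0.13, adjusted p = 0.27), without si-NC replicate 1 (0.16), without si-circ_63706 replicate 2 (0.068) and without si-circ_63706 replicate 3 (0.062), and held in 7 of 15 alternatives. COL27A1, a fibrillar collagen of cartilage, was between 2.5 and 3.02 TPM with overlapping groups (adjusted p = 0.76, 95% interval of the log2 fold change -0.16 to 0.23, and adjusted p = 0.20 after centring).

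Of the type IV genes, COL4A1 and COL4A2 rose. COL4A1 was at 22.0 and 21.95 TPM in si-NC and at 31.75, 32.45 and 31.25 TPM in si-circ_63706. The 2 groups were tight and far apart, with a mean of 145% of that in si-NC (log2 fold change 0.51 ± 0.04 SE, adjusted p = 0.0011). The call held in all 15 alternative fits. COL4A2 was at 34.3 and 32.95 TPM in si-NC and at 40.7, 40.9 and 43.5 TPM in si-circ_63706 (log2 fold change 0.30 ± 0.05 SE, adjusted p = 0.0058). It passed in 14 of 15 alternatives and was lost without si-NC replicate 2 (adjusted p = 0.052). Centring gave 0.67 for COL4A1 and 0.46 for COL4A2 on the log2 scale. COL4A1 TPM was 0.643 and 0.666 times COL4A2 TPM in si-NC and 0.780, 0.793 and 0.719 times in si-circ_63706, higher in all 3.

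The remaining type IV genes had low TPM. COL4A5, a chain of the specialised networks of kidney, cochlea and eye that is mutated in Alport syndrome, was at 1.62 and 1.67 TPM in si-NC and at 1.57 to 1.74 TPM in si-circ_63706 (log2 fold change 0.01 with a 95% interval of -0.17 to 0.20, adjusted p = 0.90, and 0.29 after centring). Its ratio to COL4A1 TPM was 0.0738 and 0.0758 in si-NC and 0.0484 to 0.0548 in si-circ_63706, and its ratio to COL4A2 TPM was 0.0487 and 0.0492 against 0.0384 to 0.0428. COL4A6 was at 0.35 to 0.51 TPM, and COL4A3 and COL4A4 were at 0.11 TPM or less in each library.

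COL4A1 and COL4A2 are head to head on chromosome 13 and are transcribed in opposite directions. Their RefSeq starts (GRCh38.p14) are 127 bases apart, so that the windows from 250 bases before to 50 after each start share 226 bases. The COL4A2 window (chr13:110307034-110307333, plus strand, promoter and start of transcription) is shown since it holds most of what the pair that rose together has in common. Capitals mark CCAAT and GGGCGG on either strand, the letters of a CCAAT box and a GC box.
COL4A2 promoter: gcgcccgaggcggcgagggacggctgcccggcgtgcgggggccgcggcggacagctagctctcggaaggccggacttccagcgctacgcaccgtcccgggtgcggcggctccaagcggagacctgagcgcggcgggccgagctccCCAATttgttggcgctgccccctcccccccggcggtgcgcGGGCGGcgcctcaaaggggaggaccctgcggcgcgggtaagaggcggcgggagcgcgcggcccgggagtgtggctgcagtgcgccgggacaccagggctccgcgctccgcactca

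RefSeq windows were found for 32 of the 44 members and 13 of the 18 tested (not COL1A1, COL1A2, COL3A1, COL5A2 and COL6A1). CCAAT, searched on both strands, was in 3 of these 13 (COL4A1, COL4A2 and COL4A5) and in 37.5% of the 8831 windows of tested genes, or 35.7% of all 27305 windows. GGGCGG was in 10 of 13, against 71.1% and 44.6%. TATAAA was in 3 of 13 (COL6A2, COL7A1 and COL13A1), against 5.19% and 12.0%. COL4A5 holds CCAAT too and did not pass the test. These matches are a description of letters and say nothing of bound factors. In GENCODE 29 some transcripts of COL4A1 and COL4A2 start further out, so that the genes overlap on opposite strands. Whether counting used strand is not stated in the sources used here, so it is not known whether reads in the overlap were assigned to the right gene.

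**Figure D2:**
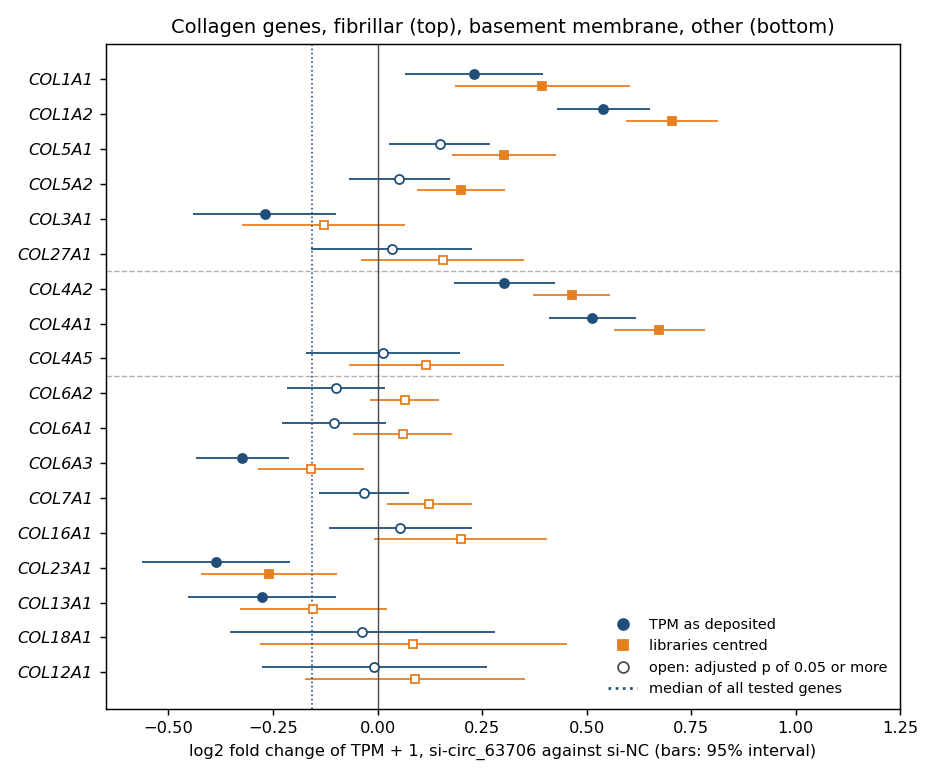
Log2 fold changes of TPM + 1 (si-circ_63706 against si-NC, 3 and 2 libraries) with 95% intervals for the 18 tested collagen genes, as deposited (circles) and after centring (squares), with filled symbols where the adjusted p was under 0.05. COL1A1, COL1A2, COL4A1 and COL4A2 lie above 0 in both, COL23A1 lies below 0 in both, and the dotted line is the median of all tested genes as deposited (-0.16).

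Type VI collagen, which links cells to the surrounding matrix, had the highest TPM among the other collagens, and of its 3 expressed chains 1 passed the test. COL6A3 (chr2:237324003-237414375, minus strand), which encodes the long chain of type VI, fell. It was at 71.2 and 68.8 TPM in si-NC and at 57.5, 54.1 and 55.7 TPM in si-circ_63706, below si-NC in each (log2 fold change -0.32 ± 0.05 SE, adjusted p = 0.0037). The call held in 14 of 15 alternatives and was lost after centring (-0.16, adjusted p = 0.068).

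COL6A1 was at 93.8 and 85.7 TPM in si-NC and at 81.6, 84.4 and 84.0 TPM in si-circ_63706. COL6A2 was at 112 and 107 TPM in si-NC and at 98.1, 103 and 105 TPM in si-circ_63706. Both were lower without overlap, by less than the test could tell from the spread (log2 fold changes -0.10 and -0.10, adjusted p = 0.15 for each), and both changed sign after centring (0.06 and 0.07). The ratio of COL6A1 to COL6A2 TPM overlapped between groups, at 0.798 and 0.837 in si-NC and 0.797 to 0.832 in si-circ_63706. The ratio of COL6A3 to COL6A2 did not overlap: it was 0.636 and 0.641 in si-NC and 0.586, 0.523 and 0.529 in si-circ_63706. COL6A3 to COL6A1 was likewise lower, at 0.759 and 0.803 against 0.704, 0.641 and 0.663. COL6A1 and COL6A2 lie in tandem on chromosome 21 at 319071 and 191272 bases from PCNT, and COL6A3 lies on chromosome 2. COL6A5 and COL6A6, which encode alternatives to the COL6A3 chain, were at 0.15 TPM or less in each library.

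**Figure D3:**
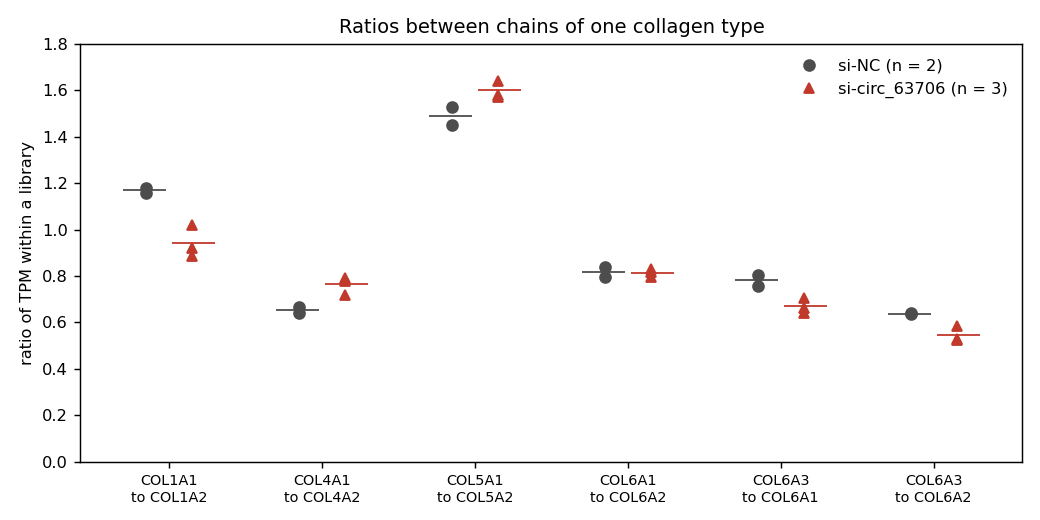
Ratio of TPM between 2 chains of a collagen type within each library, for the 2 si-NC libraries (circles) and 3 si-circ_63706 libraries (triangles), with lines at the group means. COL1A1 to COL1A2 lies lower in si-circ_63706, COL4A1 to COL4A2 and COL5A1 to COL5A2 lie higher, COL6A3 lies lower against both of its partners, and COL6A1 to COL6A2 overlaps.

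Both tested transmembrane collagens fell. COL23A1 was at 3.54 and 4.01 TPM in si-NC and at 2.52, 2.71 and 2.72 TPM in si-circ_63706 (log2 fold change -0.39 ± 0.07 SE, adjusted p = 0.0089). It was the only collagen gene that fell both as deposited and after centring (-0.26, adjusted p = 0.034), and the call was lost under quantile normalization (-0.23, adjusted p = 0.053) and without si-NC replicate 2 (adjusted p = 0.066). COL13A1, a collagen of cell adhesions and the neuromuscular junction, was at 3.27 and 2.98 TPM in si-NC and at 2.31, 2.56 and 2.35 TPM in si-circ_63706 (log2 fold change -0.28 ± 0.07 SE, adjusted p = 0.027). The groups did not overlap, but the call was lost after centring (-0.15, adjusted p = 0.16). It was also lost without si-NC replicate 1 (0.15), si-NC replicate 2 (0.068), si-circ_63706 replicate 1 (0.063) or si-circ_63706 replicate 3 (0.061), and held in 5 of 14 alternatives. COL17A1 and COL25A1, the other transmembrane members, were at 0.47 TPM or less in each library.

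The remaining tested genes did not pass the test. COL7A1, the anchoring fibril collagen below epithelia, was at 16.1 and 16.4 TPM in si-NC and at 15.9, 15.7 and 16.0 TPM in si-circ_63706, a narrow gap without overlap (95% interval of the log2 fold change -0.14 to 0.07). COL16A1 was at 6.50 and 6.54 TPM in si-NC and at 6.48 to 7.45 TPM in si-circ_63706, with si-circ_63706 replicate 1 above the rest (-0.12 to 0.22). COL12A1, which decorates the surface of type I fibrils, was at 1.22 to 1.78 TPM (-0.28 to 0.26). COL18A1, the precursor of endostatin, was at 2.18 to 3.24 TPM, both the lowest and the highest of them in si-circ_63706 (-0.35 to 0.28). It overlaps SLC19A1 on the opposite strand, which was at 2.62 to 4.28 TPM. After centring, the sign of COL7A1 turned (0.12 with a 95% interval of 0.02 to 0.22, adjusted p = 0.075), as did those of COL12A1 (0.09, adjusted p = 0.56) and COL18A1 (0.09, adjusted p = 0.70), and COL16A1 was at 0.20 (adjusted p = 0.13). As deposited, the intervals of COL12A1 and COL18A1 are wide enough to hold changes as large as those called in COL3A1 or COL13A1.

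The 26 collagen genes under the minimum were not tested. The highest mean among them was 0.89 TPM (COL8A1) and the lowest among the tested was 1.49 TPM (COL12A1). Of the 26, 6 reached 0.5 TPM in a library: COL8A1 (0.77 to 1.07 TPM), COL4A6, COL5A3, COL8A2, COL9A2 and COL11A2. COL5A3, another type V chain, was at 0.49 and 0.54 TPM in si-NC and at 0.71, 0.79 and 0.77 TPM in si-circ_63706. COL8A2 was at 0.61 and 0.62 TPM against 0.32, 0.44 and 0.50 TPM, COL9A2 at 0.63 and 0.66 against 0.40, 0.48 and 0.38, and COL11A2 at 0.44 and 0.57 against 0.36, 0.38 and 0.35. The first of these was higher and the other three lower in each si-circ_63706 library. The other 20 stayed at 0.47 TPM or less, the cartilage collagens COL2A1, COL9A1, COL10A1 and COL11A1 among them, and 4 of the 26 were listed at 0 in at least 1 library. A value of 0.01 TPM is the smallest step of the table.

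Summed over all members of a class, fibrillar collagen was at 185 and 175 TPM in si-NC and at 236, 221 and 224 TPM in si-circ_63706, a ratio of means of 1.26. Basement membrane collagen was at 58.6 and 57.1 TPM in si-NC and at 74.7, 75.4 and 77.0 TPM in si-circ_63706, a ratio of 1.31. The sum of the other collagens was at 315 and 299.8 TPM in si-NC and at 273, 278 and 279.9 TPM in si-circ_63706, a ratio of 0.90. The first 2 sums were higher and the third lower in each si-circ_63706 library, and after centring the third was level (ratios 1.42, 1.47 and 1.01). Most of these sums came from COL1A1 and COL1A2, from COL4A1 and COL4A2, and from the 3 type VI genes.

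As shares of the summed collagen TPM, which do not depend on the library total, fibrillar collagen was 33.2 and 32.9% in si-NC and 40.4, 38.5 and 38.6% in si-circ_63706. Basement membrane collagen took 10.5 and 10.7% against 12.8, 13.1 and 13.3%. Other collagens took 56.4% in both si-NC libraries and 46.8, 48.4 and 48.2% in si-circ_63706. The shares of fibrillar and basement membrane collagen were thus higher, and that of the other collagens lower, in each si-circ_63706 library. All collagen genes together were at 559 and 532 TPM in si-NC and at 583, 575 and 581 TPM in si-circ_63706, which was 0.192 and 0.183% of the protein-coding TPM against 0.231, 0.220 and 0.216%.

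**Figure D4:**
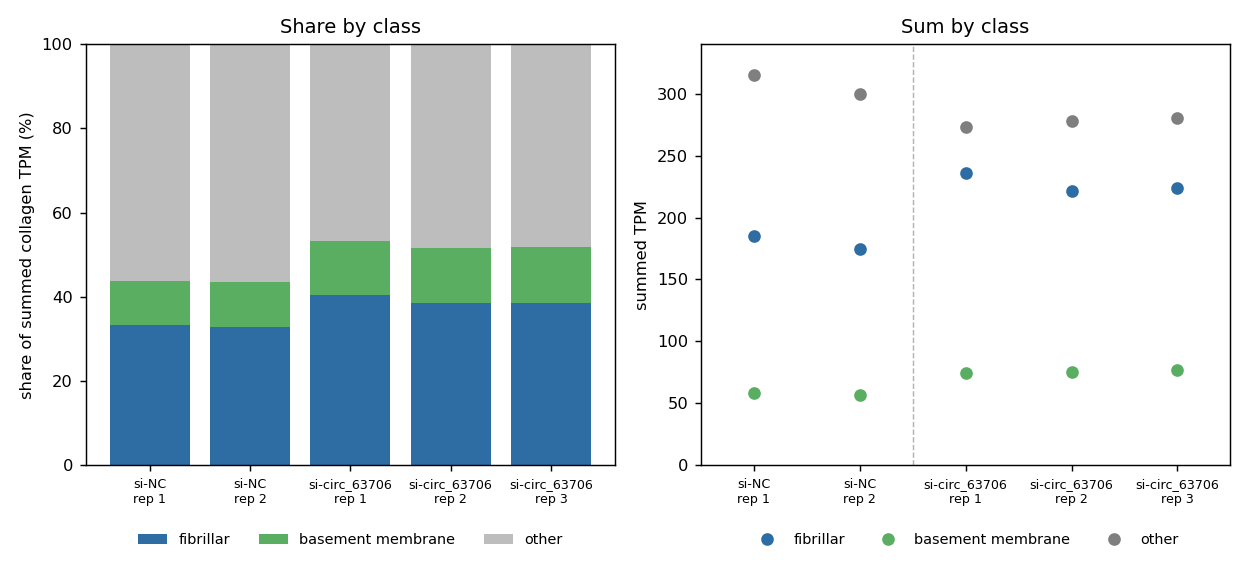
Share of the summed collagen TPM by class in each library (left, bars from 0 to 100%) and summed TPM by class (right), over all 44 genes. The fibrillar share was 33.2 and 32.9% in si-NC and 38.5 to 40.4% in si-circ_63706, while the share of the other collagens was 56.4% against 46.8 to 48.4%.

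Many collagen mRNAs are known targets of the miR-29 family, microRNAs that share a seed (bases 2 to 8). The mature sequences from RefSeq (GRCh38.p14) are shown with the seed in capitals. Mature microRNAs were not measured in these libraries. In the order shown, and with 1 position listed for each name, the positions are chr7:130876748-130876769 (minus strand), chr1:207802450-207802472 (minus strand) and chr1:207801865-207801886 (minus strand). Any further locus with the same mature name is not listed.
hsa-miR-29a-3p: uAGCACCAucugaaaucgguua
hsa-miR-29b-3p: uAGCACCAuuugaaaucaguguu
hsa-miR-29c-3p: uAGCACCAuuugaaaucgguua

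The matching 7 bases, TGGTGCT on the sense strand, were searched in the 3′ UTR of 1 GENCODE 29 transcript per gene. They were in 13 of the 18 tested collagen genes, against 13.6% of the 10940 tested genes with a 3′ UTR. The median 3′ UTR was 1049 bases for the collagen genes and 911 bases for these genes. COL5A1 held 4 copies, COL3A1 and COL7A1 held 2 each, and COL6A1, COL12A1, COL13A1, COL18A1 and COL23A1 held none. The sites of the 6 called genes that hold one are shown with 10 bases on each side, with the match in capitals.
COL1A1 site: agggaatcacTGGTGCTatagaaattg
COL1A2 site: agaatgttgaTGGTGCTagaagaattt
COL4A1 site: tgtcacaacaTGGTGCTacttcttctt
COL4A2 site: agggccatttTGGTGCTtattcttaac
COL6A3 site: cctatcagtaTGGTGCTaatgtgtctg
COL3A1 first site: aatgtctcaaTGGTGCTataataaata
COL3A1 second site: acgcatgttaTGGTGCTaatgtacttt

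The 7-base matches lie in the 3′ UTR exons at chr17:50184573-50184579 (COL1A1, minus strand), chr7:94430913-94430919 (COL1A2, plus), chr13:110150327-110150333 (COL4A1, minus), chr13:110512219-110512225 (COL4A2, plus), chr2:237324602-237324608 (COL6A3, minus), and chr2:189012016-189012022 and chr2:189012456-189012462 (COL3A1, plus), all GRCh38. All 4 genes that rose held the site, and of the 4 that fell COL3A1 and COL6A3 held it while COL13A1 and COL23A1 did not. COL4A5, COL5A1, COL5A2, COL6A2, COL7A1, COL16A1 and COL27A1 held it too and did not pass the test. Whether the site bears on any change was not tested. The same search was made for sites complementary to the guides of the study's siRNAs, with TGAAGGA and CTGAAGG matching the seeds of the first and the second and GAAGGAA matching bases 1 to 7 of the first. TGAAGGA was in 1 collagen gene (COL4A1) against 13.9% of tested genes, CTGAAGG in 4 (COL4A1, COL4A2, COL18A1 and COL27A1) against 12.5%, and GAAGGAA in 2 (COL1A1 and COL6A3) against 17.3%. Genes that rose, fell and did not pass the test were among those with a match.

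Genes that make, trim, cross-link, bind or sense collagen were followed in 6 lists with 71 genes, of which 49 were tested. As deposited, 7 rose and 14 fell (4.16% and 35.4% of all tested genes did), with a median log2 fold change of -0.02. After centring, 16 rose and 3 fell (12.3% and 15.2% of all tested genes), and the median was 0.13. The split between directions therefore depends on the scaling. The 7 that rose did so both as deposited and after centring (P4HA2, P4HB, LOX, SPARC, TNC, DDR1 and ITGA11), and PLOD1, CRTAP and DDR2 fell in both. With each library left out in turn, ITGA11, LOX, PCOLCE, PLOD1 and TNC kept their calls. The other 16 lost theirs without at least 1 library, 15 of them without si-NC replicate 1 and 12 without si-NC replicate 2 (adjusted p 0.050 to 0.22 where lost).

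Of 19 genes of chain modification and folding, 17 were tested, 2 rose and 4 fell (11.8% and 23.5%, against 4.16% and 35.4% of all tested genes). After centring, 5 of them rose and 2 fell, where 12.3% and 15.2% of all tested genes did. P4HA2 and P4HB, subunits of the prolyl 4-hydroxylase that makes collagen helices stable, rose. P4HA2 was at 34.9 and 33.7 TPM in si-NC and at 38.0, 42.7 and 43.4 TPM in si-circ_63706 (log2 fold change 0.26 ± 0.07 SE, adjusted p = 0.024). P4HB was at 167 and 162 TPM against 177, 183 and 191 TPM (0.16 ± 0.05 SE, adjusted p = 0.044). P4HA2 overlaps PDLIM4 (51.8 to 66.5 TPM) on the opposite strand. P4HB overlaps an antisense gene that was at 1.04 and 0.45 TPM in si-NC and at 6.06, 4.08 and 2.73 TPM in si-circ_63706. Of the other catalytic subunits, P4HA1 was at 8.01 to 8.69 TPM with overlapping groups (adjusted p = 0.80, and 0.083 after centring), and P4HA3, at 0.34 to 0.51 TPM, was not tested. Both subunits that rose lay above si-NC in each si-circ_63706 library.

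PLOD1, a lysyl hydroxylase, fell from 24.0 and 22.55 TPM in si-NC to 16.95, 17.9 and 18.1 TPM in si-circ_63706 (log2 fold change -0.38 ± 0.05 SE, adjusted p = 0.0036). CRTAP, a part of the prolyl 3-hydroxylation complex, fell from 36.9 and 35.2 TPM to 25.4, 28.1 and 29.8 TPM (-0.37 ± 0.07 SE, adjusted p = 0.0098). TMEM38B, an endoplasmic reticulum ion channel needed for collagen modification in bone, fell as deposited only (-0.36, adjusted p = 0.010, and 0.10 after centring), as did P3H3 (-0.26, adjusted p = 0.015, and 0.24). PLOD2, the lysyl hydroxylase of the chain ends, did not pass the test (0.03, adjusted p = 0.76, and 0.19, adjusted p = 0.068, after centring). SERPINH1, the collagen chaperone HSP47, was at 62.7 and 60.8 TPM in si-NC and at 62.3, 67.9 and 67.4 TPM in si-circ_63706, with overlap (0.09, adjusted p = 0.21), and passed after centring (0.25, adjusted p = 0.0070).

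Of 7 export genes, 6 were tested and 1 fell (35.4% of all tested genes did). After centring, 2 export genes rose (12.3% of all tested genes did) and none fell. KLHL12, which helps to build large carriers for procollagen, was the one that fell as deposited (-0.23 ± 0.06 SE, adjusted p = 0.025, and 0.38 after centring). Of 10 propeptide cleavage genes, 3 were tested and 2 fell, where 35.4% of all tested genes did. PCOLCE, an enhancer of C-propeptide removal, was at 28.98 and 27.6 TPM in si-NC and at 22.5, 22.3 and 21.7 TPM in si-circ_63706 (-0.34 ± 0.05 SE, adjusted p = 0.0035). BMP1, the C-proteinase that it enhances, was at 5.53 and 5.32 TPM against 4.33, 4.19 and 4.59 TPM (-0.26 ± 0.06 SE, adjusted p = 0.018). Neither passed after centring (adjusted p = 0.053 and 0.16).

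Of 6 cross-linking genes, 5 were tested, 1 rose and 1 fell (4.16% and 35.4% of all tested genes did). After centring, 1 rose and none fell, where 12.3% and 15.2% of all tested genes did. LOX, lysyl oxidase, which starts the covalent cross-links between collagen molecules, was at 18.35 and 21.2 TPM in si-NC and at 27.5, 27.3 and 28.6 TPM in si-circ_63706. Each si-circ_63706 library was above both si-NC libraries (log2 fold change 0.47 ± 0.07 SE, adjusted p = 0.0038, and 0.63 after centring). LOX overlaps SRFBP1 (8.65 to 10.3 TPM) on the opposite strand. LOXL2, a lysyl oxidase that acts on type IV collagen, was at 18.1 and 18.7 TPM against 16.3, 15.4 and 15.4 TPM (-0.22 ± 0.05 SE, adjusted p = 0.018, and 0.49 after centring). It overlaps ENTPD4 (7.09 to 8.47 TPM) on the same strand.

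**Figure D5:**
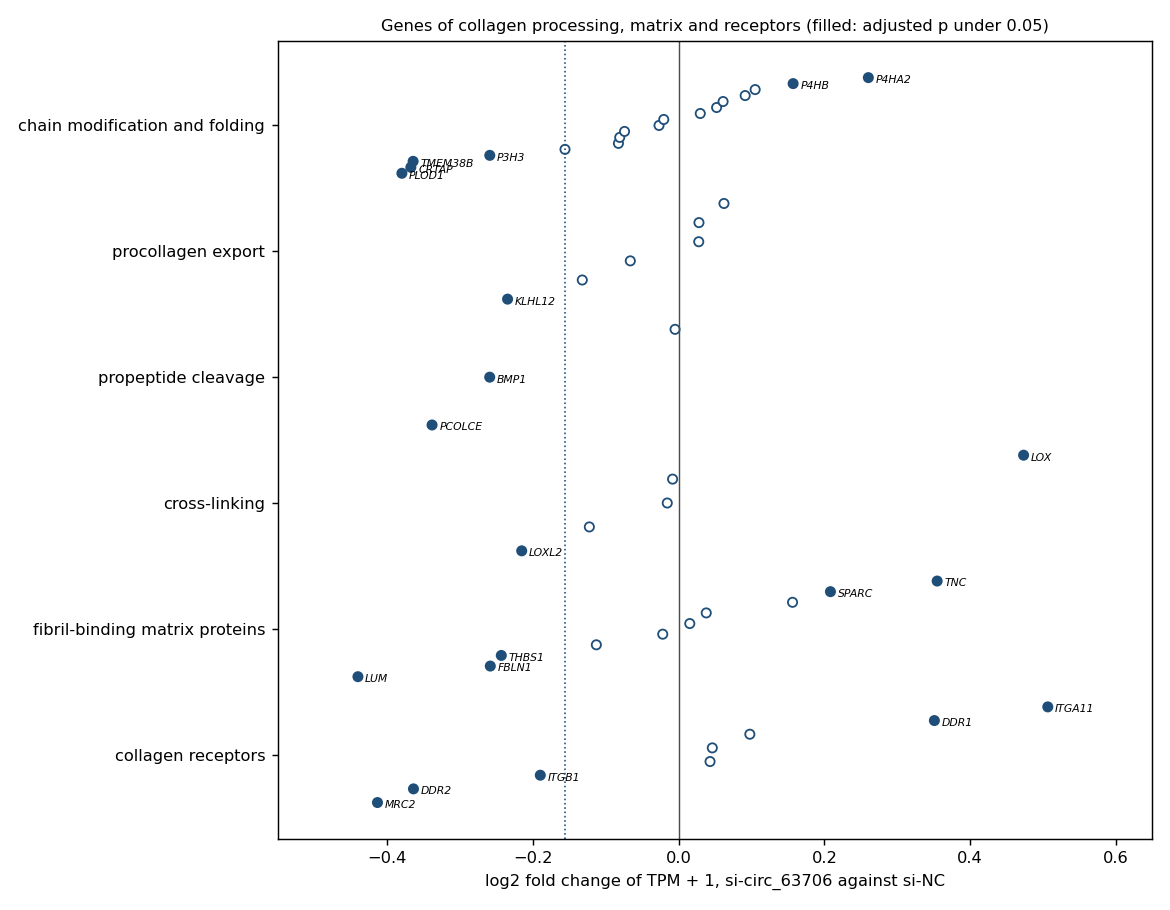
Log2 fold changes of TPM + 1 (si-circ_63706 against si-NC) for the 49 tested genes of 6 lists, each point 1 gene, filled and named where the adjusted p was under 0.05, with the dotted line at the median of all tested genes (-0.16). LOX (0.47) and ITGA11 (0.51) lie furthest to the right, and LUM (-0.44) and MRC2 (-0.41) furthest to the left.

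Of 18 fibril-binding matrix genes, 10 were tested, 2 rose and 3 fell (20% and 30%, against 4.16% and 35.4% of all tested genes). After centring, 4 of them rose and none fell, where 12.3% and 15.2% of all tested genes did. TNC, tenascin-C, was at 32.6 and 30.1 TPM in si-NC and at 39.0, 40.7 and 41.4 TPM in si-circ_63706 (log2 fold change 0.35 ± 0.05 SE, adjusted p = 0.0045). SPARC, a collagen-binding protein, was at 187 and 178 TPM against 200.1, 214 and 218 TPM (0.21 ± 0.05 SE, adjusted p = 0.024). LUM, the fibril-binding lumican, was at 5.64 and 5.79 TPM against 3.66, 3.47 and 4.82 TPM (-0.44 ± 0.12 SE, adjusted p = 0.027). FBLN1 (-0.26, adjusted p = 0.040) and THBS1 (-0.24, adjusted p = 0.0060) fell as well, and none of these 3 passed after centring (adjusted p = 0.086, 0.31 and 0.089). THBS1 overlaps an antisense gene at 4.2 to 6.18 TPM and a sense intronic gene at 6.47 to 8.27 TPM. FN1, fibronectin, on which collagen fibrils are laid down, was at 823 to 855 TPM with overlapping groups (0.02, adjusted p = 0.80) and passed after centring (0.18, adjusted p = 0.025).

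Of 11 collagen receptors, 8 were tested, 2 rose and 3 fell (25% and 37.5%, against 4.16% and 35.4% of all tested genes). After centring, 4 of them rose and 1 fell, where 12.3% and 15.2% of all tested genes did. ITGA11, the integrin chain that binds fibrillar collagen, was at 4.06 and 3.62 TPM in si-NC and at 6.36, 5.59 and 5.68 TPM in si-circ_63706 (log2 fold change 0.51 ± 0.08 SE, adjusted p = 0.0044). Its partner ITGB1 was at 129 and 137 TPM against 114, 115 and 121 TPM (-0.19 ± 0.05 SE, adjusted p = 0.024), which centring brought to -0.03 (adjusted p = 0.61). The 2 discoidin domain receptors, kinases that bind collagen, moved apart. DDR1 was at 4.44 and 4.92 TPM in si-NC and at 6.0, 6.5 and 6.22 TPM in si-circ_63706 (0.35 ± 0.07 SE, adjusted p = 0.0083). DDR2 was at 8.31 and 8.92 TPM against 5.97, 6.80 and 6.66 TPM (-0.36 ± 0.07 SE, adjusted p = 0.0092). Both calls held after centring (adjusted p = 0.0040 and 0.038) but were among those lost with a si-NC library left out. The log2 fold change was then 0.29 for DDR1 (without si-NC replicate 1) and -0.32 for DDR2 (without si-NC replicate 2). MRC2, an endocytic receptor for collagen, fell as deposited (-0.41 ± 0.09 SE, adjusted p = 0.013) and missed the threshold after centring (adjusted p = 0.085).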

How the data were processed

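The authors deposited 1 table of TPM for the 5 libraries, rounded to 2 decimals. The submitters' processing notes name cutadapt 2.3, STAR 2.7.0d, RSEM 1.3.1 and the build hg38, without roles, and the strand setting is not given in the sources used here. TPM carries no read counts, so no count model was used, and a gain of other RNA lowers the TPM of each gene. Genes with a mean of at least 1 TPM were tested in limma 3.58.1 (R 4.3.3) on log2(TPM + 1) with a mean-variance trend, without covariates, and with Benjamini-Hochberg adjustment over 12710 genes. The script was tested on simulated data. For centring, TPM was divided by its mean over the 5 libraries, and the library median of the log2 quotient (genes with a mean of at least 10 TPM) was subtracted. The members and gene lists were chosen with earlier results of these data known. Every tested collagen gene is named. Of the lists, called genes are named (at most the 3 lowest and 3 highest of each, with P3H3 added after its value was seen), with P4HA1, P4HA2, PLOD2, SERPINH1, LOX, FN1, SPARC, ITGB1 and DDR2 in any case. Collagen classes follow known chain types. Gene positions and transcripts were from GENCODE 29 (GRCh38), in which all 44 members were found by gene ID, and promoter windows and microRNAs from RefSeq (GRCh38.p14). The alternatives were a pseudocount of 0.1, no minimum or a minimum of 5 TPM, centring, quantile normalization, protein-coding genes alone, no mitochondrial genome, no trend, quality weights, a replicate block, and leaving out each library.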

Additional observations from a re-analysis of the deposited data

How the results depend on the processing

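Calls changed with the scaling of the libraries, with the minimum TPM, under the replicate block and with libraries left out. With centred libraries, quantile normalization and protein-coding genes alone (rescaled to their own total), collagen genes that fell numbered 1, 1 and 2 (4 as deposited). COL23A1 fell with centring, COL6A3 with quantile normalization, and both with protein-coding genes alone, so that no collagen gene fell under all 3. Collagen genes that rose numbered 7 with protein-coding genes alone, where COL5A1, COL5A2 and COL5A3 joined. The collagen median log2 fold change was 0.12, 0.14 and 0.090 under these 3 scalings, and 0.053 with a minimum of 5 TPM. The si-circ_63706 to si-NC ratio of summed TPM became 1.42, 1.40 and 1.40 for fibrillar (1.26 as deposited), 1.47, 1.47 and 1.46 for basement membrane (1.31) and 1.01, 0.995 and 1.00 for other collagens (0.90). In the 6 lists, 16, 15 and 17 genes rose (7 as deposited) and 3, 4 and 7 fell (14). With no minimum TPM, 2 collagen genes fell, 4 list genes rose and 4 fell, and with a minimum of 5 TPM, 2 collagen genes fell. The pseudocount of 0.1 and leaving out the mitochondrial genome changed none of these counts by over 1.5 times. No named gene turned to the opposite direction while called.

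With a replicate block over the shared numbers, 2 collagen genes fell, 4 list genes rose and 9 fell. Deviations from the group mean correlated over genes at 0.014 and 0.026 for same-numbered libraries. For si-NC replicate 1 and si-circ_63706 replicate 3 the correlation was 0.011. The deviations of 2 si-NC libraries mirror each other, so these correlations cannot decide whether the numbers mark pairs. The labels give no shared batch, and the numbers were not taken as pairs. With each library left out in turn, 2 to 4 collagen genes rose and 2 to 3 fell, with medians of -0.0098 to 0.039. In the lists, 3 to 7 rose and 3 to 13 fell. Each si-NC library left out leaves 1 control, which is then assumed to vary like the other group. With 2 control libraries, small changes could not be told from the spread, and without counts the sampling error of genes near 1 TPM is unknown.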

Other observations

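Of the antisense genes and pseudogenes named after collagen genes, none reached 0.5 TPM in a library. COL4A2-AS1, an antisense gene at COL4A2, was at 0.08 and 0.05 TPM in si-NC and at 0.31, 0.36 and 0.04 TPM in si-circ_63706, with overlapping groups. The precursor gene MIR29C was at 12.8 TPM in 1 si-NC library and listed at 0 in the other 4, and MIR29A, MIR29B1 and MIR29B2 were listed at 0 in all 5. Values of such short genes in a library of this kind say little about the mature microRNA.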
